A study of Mus musculus with 24 samples.

Results

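The brains of male *Rap1* KI/KI mice were compared with the brains of wild-type (WT) males on 6 Agilent 1-color arrays, out of 24 arrays that also covered liver, heart and skeletal muscle. The members are the 6 arrays whose titles give brain RNA, 3 from WT and 3 from KI/KI mice, and each array holds 1 mouse. The line was crossed to C57BL6 mice (C57BL/6N in the study's methods) 4 times, and no drug or other treatment is labelled. WT1 and KI1 were 5 months old, whereas WT2, WT3, KI2 and KI3 were 2 months old. The 5-month pair lay on 1 slide and the 4 younger mice on another, so age and slide cannot be told apart in the brain. The KI/KI mice carry an isoleucine to arginine change (I312R) in both copies of *Rap1* in every cell, and the labels name no brain region and do not say how the tissue was cut. Of 55681 probes, 37835 passed the scanner's test of being well above background on 3 or more brain arrays and were tested. The tested probes include 17050 named genes, each represented by its brightest probe.

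RAP1, encoded by *Terf2ip*, is a shelterin subunit that reaches telomeres by binding TRF2, and it also binds chromatin elsewhere and acts in the cytosol on NF-kappaB signaling. The I312R change disrupts the contact with TRF2. The study reports reduced RAP1 protein in KI/KI brain, with a larger share of it in the cytosol. The comparison therefore asks what happens to brain transcripts when RAP1 is both lower and away from telomeres, and cannot tell these apart. Brain tissue mixes regions that differ widely in the transcripts they hold, such as cerebellum, striatum and brainstem, with glia, vessels, choroid plexus and resident immune cells. In bulk RNA, fewer cells of a type and less RNA per cell cannot be told apart.

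The guide RNA and the repair template that made the allele are shown because they define the genotype. Lower case is used throughout, except that capitals mark the isoleucine codon in the guide and the arginine codon that replaces it in the template.
Guide, 20 bases: gaactgccattaaggtgATC
Template, 120 bases: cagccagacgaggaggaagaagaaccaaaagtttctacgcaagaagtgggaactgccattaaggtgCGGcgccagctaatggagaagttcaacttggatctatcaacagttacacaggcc
Counted from 1 at the 5′ end of the guide, the template differs from the guide by A18C, T19G and C20G, and the guide aligns to bases 50 to 69 of the template. The labels state that 4 template bases were changed, and the methods mark the remaining one, a silent change, in the codon after the arginine codon, outside the guide.

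*Terf2ip* itself was measured by 2 probes. Levels are log2 signals minus the 75th percentile of their array, so that a difference of 1 is a 2-fold change. The brighter probe read 1.83, 1.40 and 1.28 on WT1, WT2 and WT3, and 1.49, 1.76 and 1.20 on KI1, KI2 and KI3. The genotypes overlapped, with a KI/KI minus WT difference of -0.02 (SE 0.24, n = 3 per genotype), and the dimmer probe gave -0.17 (SE 0.21). A point mutation leaves the mRNA in place, so these levels check no label. All 7 shelterin genes were tested, and their differences ran from -0.24 to 0.11. *Terf1*, the TRF1 subunit, was lower on each KI/KI array (0.08, -0.04 and -0.03) than on each WT array (0.10, 0.29 and 0.21), a difference of -0.20 (SE 0.16). The 12 telomerase and CST genes had differences from -0.24 to 0.19, with a median of 0.02.

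The arrays were of similar quality. Between 62.6% and 72.7% of probes were well above background on each, no probe was saturated, and the 75th percentile of the processed signal was 873.7 to 1366 intensity units. Pan-neuronal genes were well above background on all 6 arrays (28 of 28), which fits the brain label. The arrays did not group by genotype: over 37799 probes the highest Pearson correlations between arrays were 0.990 for WT2 with WT3 and also for KI1 with KI2, next came WT1 with KI2 at 0.989, and the lowest was WT1 with KI3 at 0.952. WT1 carried liver transcripts: albumin (*Alb*) read 0.57 there and between -6.04 and -3.86 on the other arrays.

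Levels of regional marker genes differed between the 6 samples before genotype was considered. Cerebellar and hindbrain genes were highest in KI1 and KI2 and lowest in WT3 and KI3. Of 17 hindbrain genes tested, 5 were well above background on WT3 and 6 on KI3, against 12 of 14 cerebellar granule cell genes on each. *Gabra6*, a GABA-A receptor subunit of cerebellar granule cells, read 0.34, -2.38 and -8.33 in WT and 3.00, 1.48 and -7.46 in KI/KI, and was not well above background on WT3 and KI3. *Pcp2*, a Purkinje cell gene, read 4.21, 1.93 and -0.96 in WT and 6.36 and 5.03 in KI1 and KI2, with KI3 just below WT3. *Hoxb5*, a positional gene of the caudal hindbrain and spinal cord, read -2.36, -4.49 and -8.95 in WT and 0.33, 0.32 and -7.97 in KI/KI. In each of these genes KI1 and KI2 were the highest arrays, WT1 and WT2 were intermediate, and WT3 lay with KI3 at the bottom, so that the genotypes overlapped.

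**Figure D1:**
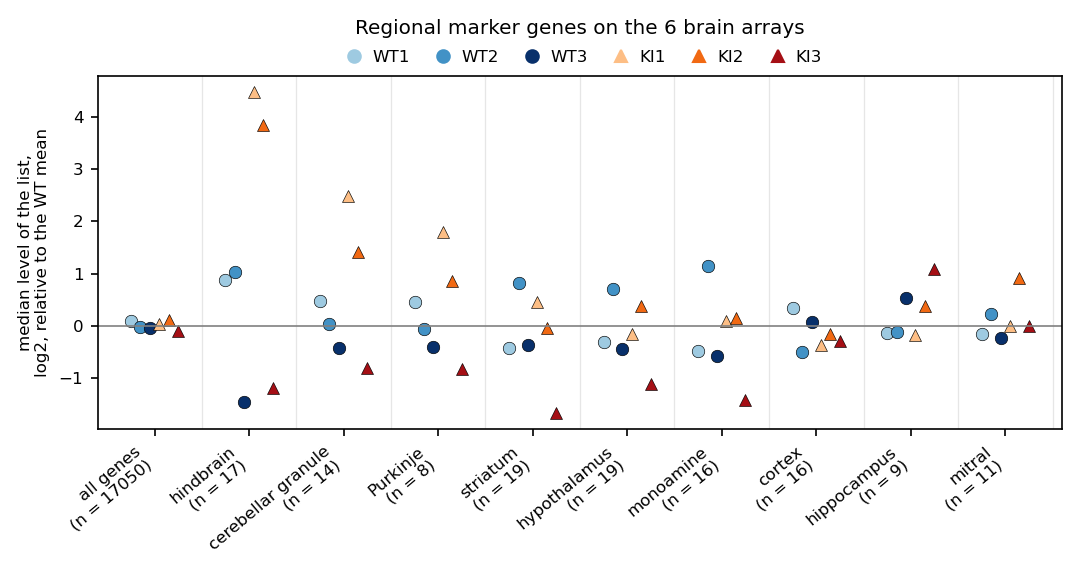
Median log2 level of 9 lists of regional marker genes on each brain array, relative to the WT mean of each gene, with all 17050 genes at the left. Circles are WT and triangles KI/KI mice. KI1 and KI2 stand at 4.46 and 3.83 for the hindbrain and spinal genes, KI3 at -1.18 and WT3 at -1.46, and KI3 is the lowest array for the striatal, hypothalamic and monoamine lists.

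The KI3 sample also stood apart in the forebrain and in immune genes. It was the lowest of the 6 arrays for 18 of 19 striatal genes, against 33.7% of all genes. It was the highest array for 23 of 24 reactive astrocyte genes, against 20.1% of all genes. Results that rest on KI3 are therefore given with and without it, and whether its state or its dissection plays a part in any of them was not tested.

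No probe passed an adjusted p of 0.05 in the comparison of KI/KI with WT brain (limma, Benjamini-Hochberg over 37835 probes; 0% of probes). At an unadjusted p under 0.05, 419 probes were higher (1.11%) and 573 lower (1.51%) in KI/KI, a split of 607 higher and 376 lower after quantile normalization. All 3 KI/KI arrays lay above all 3 WT arrays for 1514 probes (4%) and below them for 1412 probes (3.73%). Among named genes, 289 were higher (1.7%) and 156 lower (0.915%) at that level. Of the genes, 984 (5.77%) lay higher on every KI/KI array than on any WT array and 490 (2.87%) lower, and such genes are called separated here. The median difference over all genes was 0.01. Without KI3 these figures became 473 higher (2.77%) and 146 lower (0.856%) at unadjusted p, 2772 genes separated upwards (16.3%) and 883 downwards (5.18%), with a median of 0.07. The lowest adjusted p, 0.12, belonged to an unnamed cDNA probe (AK138519), which read -8.25, -8.46 and -8.78 in WT, where no array had it well above background, and -5.03, -5.36 and -5.01 in KI/KI. KI/KI exceeded WT by at least 2.28-fold, counted against the lowest signals well above background. The probe was tested through the KI/KI arrays alone, which favors this direction. Every other probe, and so every gene named here, had an adjusted p of 1 (limma), and the differences are given as measurements.

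Among the genes with all KI/KI arrays on one side of all WT arrays, the 15 with the smallest p in each direction were taken for description. *Spp1* encodes osteopontin, a secreted glycoprotein made by activated microglia and macrophages. Its levels were -1.10, -0.57 and -1.69 in WT and 1.18, 0.91 and 1.07 in KI/KI. The KI/KI arrays agreed closely, and the difference of 2.17 (SE 0.31) stayed between 1.89 and 2.45 when any 1 array was left out. *Eomes*, a T-box transcription factor of olfactory bulb mitral cells, cortical progenitors and cerebellar unipolar brush cells, read -4.12, -5.60 and -5.29 in WT and -2.40, -2.22 and -3.04 in KI/KI. The genotypes did not overlap, with a difference of 2.45 (SE 0.44), which was 1.29 after normexp background correction, as the gene was dim. *Ucma*, a secreted cartilage matrix protein, read -0.60, -0.61 and -1.51 in WT and 0.65, 0.63 and 1.17 in KI/KI, a difference of 1.72 (SE 0.32).

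Several genes of the cell surface and of signaling stood among the 15 higher ones. *Cd24a*, a glycosylphosphatidylinositol-anchored surface protein, differed by 0.91 (SE 0.19), and *Cd38*, an ectoenzyme that consumes NAD, by 1.02 (SE 0.21). *Tnfrsf12a*, the receptor for TWEAK, read 0.80, 0.42 and 0.34 in WT and 1.33, 1.38 and 1.51 in KI/KI, a difference of 0.89 (SE 0.19). All 3 of these genes had each KI/KI array above each WT array, which was a condition for choosing the 15. *Sdc1*, the heparan sulfate proteoglycan syndecan 1, differed by 1.02 (SE 0.20), *Pdgfd*, a platelet-derived growth factor ligand, by 0.81 (SE 0.17), and *Afap1l2*, an adaptor of Src signaling, by 1.12 (SE 0.20). *Dpf3*, a subunit of BAF chromatin remodeling complexes, differed by 1.00 (SE 0.19). *Gsdma*, a pore-forming gasdermin, *Tmem52*, *Vstm4* and *Scgb1c1* completed the group with *Zic4*, and their differences ran from 0.83 to 1.24.

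Several of the 15 lower genes were near the array's floor in KI/KI. *Cst11*, a cystatin, was not well above background on any KI/KI array and was at least 1.80-fold lower there. *Krt6b*, a keratin, was likewise not well above background there and at least 1.98-fold lower. Both genes were tested through the WT arrays alone, which favors this direction. *St6gal2*, a sialyltransferase, was well above background on all 6 arrays, with -1.14, -1.38 and -1.21 in WT and -1.88, -1.83 and -2.04 in KI/KI. Its genotypes were separated by more than the spread within either one, with a difference of -0.68 (SE 0.17). *Nyap2*, a phosphoinositide 3-kinase adaptor of neurons, differed by -0.70 (SE 0.18), and *Marchf10*, a RING-type ubiquitin ligase, by -0.85 (SE 0.20). *Pcdhb19* and *Pcdhgc5*, clustered protocadherins that act in neuronal adhesion and share sequence with their paralogs, differed by -1.04 (SE 0.24) and -0.75 (SE 0.19). *Macc1*, *Dusp9*, a MAP kinase phosphatase, *Saxo1*, *Zscan25*, *Gm48957* and 3 Riken transcripts completed the group, with differences from -1.09 to -0.65. Normexp correction shrank the dimmest of these, so that *Cst11* stood at -0.43 and *Saxo1* at -0.31.

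**Figure D2:**
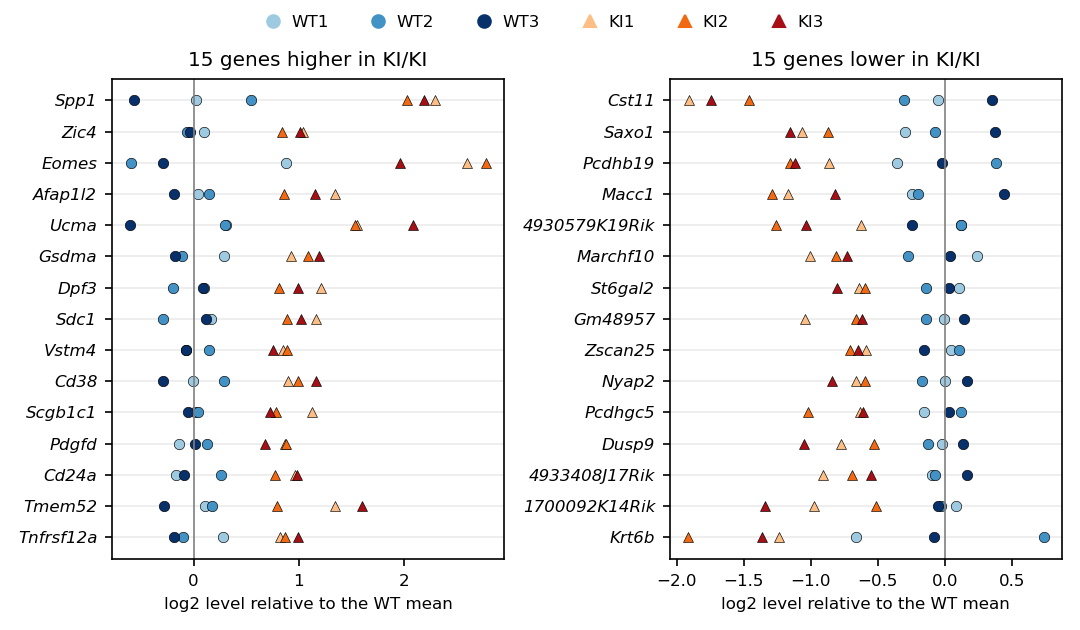
Levels of the 15 higher and the 15 lower genes on each brain array, in log2 relative to the WT mean of each gene; circles are WT and triangles KI/KI mice. The genes were chosen for their separation, so the gap between circles and triangles is a description. For *Spp1* the 3 KI/KI arrays lie close together, to the right of all WT arrays.

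Cerebellar and hindbrain genes were higher in KI/KI on average, and this rested on KI1 and KI2. Of 21 hindbrain and spinal genes, mostly *Hox* transcription factors, 17 were tested, all with positive differences. Their median was 2.41, which ran from 1.19 without WT3 to 4.23 without KI3 and was 1.17 after normexp background correction. The number well above background was 14, 13 and 5 on WT1, WT2 and WT3, and 17, 17 and 6 on KI1, KI2 and KI3. At an unadjusted p under 0.05, 2 of the 17 were higher (1.7% of all genes), and 1 was separated (5.77% of all genes). Without KI3, 16 of 17 were higher at that level (2.77% of all genes), and 16 were separated (16.3% of all genes). WT3, also low for these genes, stayed in, so these counts set KI1 and KI2 against a WT group that holds WT3. KI1 and KI2 were the highest of the 6 arrays for 16 of the 17, against 11.7% of all genes.

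*Hoxd4* was the separated member. It read -6.01, -6.01 and -8.59 in WT, never well above background there, and -2.24, -3.04 and -4.38 in KI/KI, at least 7.99-fold higher. *Hoxd4* was tested through the KI/KI arrays alone, which favors this direction. *Hoxb5* differed by 2.83 with an SE of 2.71, and its KI3 level lay below both WT1 and WT2.

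The 14 cerebellar granule cell genes had a median difference of 1.14, which was 2.00 without KI3, 0.70 without WT3 and 0.40 without KI1. Of these, 2 were higher at an unadjusted p under 0.05 (1.7% of all genes) and separated (5.77% of all genes). Without KI3, but with WT3, which was also low for these genes, the counts were 10 (2.77% of all genes) and 12 (16.3% of all genes). *Zic4*, a zinc finger transcription factor of the developing cerebellum and dorsal midline, was 1 of the 2. Its levels were -0.99, -1.15 and -1.12 in WT and -0.05, -0.24 and -0.08 in KI/KI, a difference of 0.96 (SE 0.16). Unlike the other granule cell genes, *Zic4* was nearly as high in KI3 as in KI1. *Zic2*, its paralog, was the other one, with -1.39, -0.89 and -2.09 in WT and 1.65, -0.53 and -0.04 in KI/KI, a difference of 1.82 (SE 0.62). *Gabra6* differed by 2.46 with an SE of 3.33, and *Cbln3*, a granule cell cerebellin, by 2.62 (SE 2.40).

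Purkinje cell genes followed, with a median of 0.88 over 8 tested, 1.32 without KI3, 0.38 without WT3, 0.59 without KI2 and 0.04 without KI1. *Homer3*, a postsynaptic scaffold of Purkinje cells, read -1.22, -2.03 and -1.91 in WT and 0.12, -0.93 and -0.84 in KI/KI, and was the only separated member, at 1.17 (SE 0.37). *Pcp2* differed by 1.74 with an SE of 2.18.

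**Figure D3:**
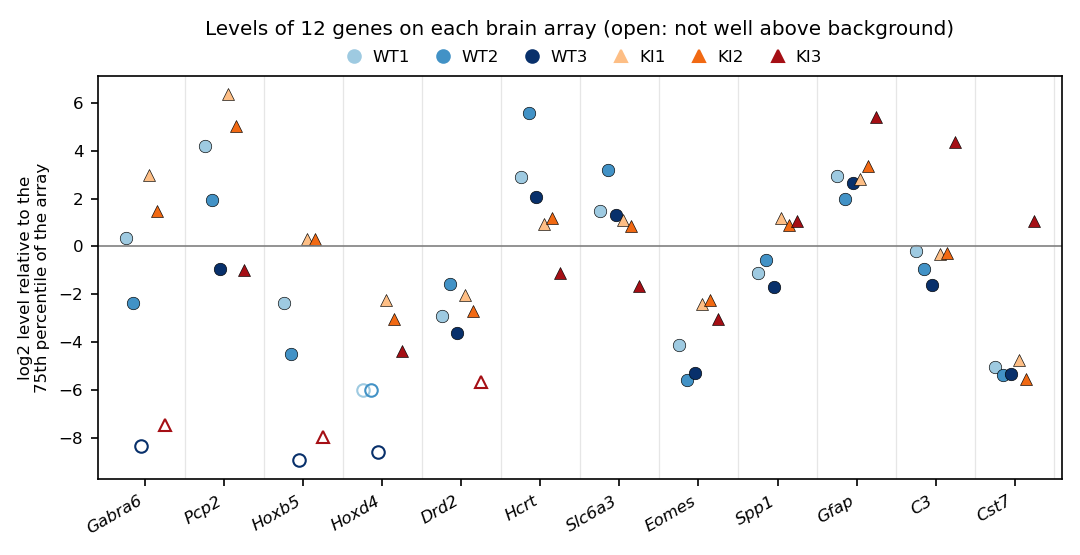
Log2 level of 12 genes on each brain array, with the array's 75th percentile set to 0; circles are WT, triangles KI/KI, and open symbols mark arrays on which the probe was not well above background. *Gabra6*, *Pcp2* and *Hoxb5* split by sample rather than by genotype, *Hoxd4*, *Spp1* and *Eomes* split by genotype, and *Gfap*, *C3* and *Cst7* are highest on KI3.

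Striatal, hypothalamic and midbrain genes were lower in KI/KI on average, with KI3 the lowest and WT2 the highest array in each list. The 19 striatal projection neuron genes had a median of -0.47, which was 0.18 without KI3, -0.07 without WT2 and -0.86 without KI1. None of the 19 was separated or had an unadjusted p under 0.05 (limma). *Penk*, which encodes proenkephalin, read 5.24, 6.50 and 5.32 in WT and 6.32, 5.94 and 3.19 in KI/KI. KI1 and KI2 lay within the WT range, and KI3 lay below it.

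Hypothalamic genes had a median of -0.29 over 19 tested of 22 listed. It was 0.06 without KI3 and -0.17 without WT2, and -0.61 and -0.53 without KI2 and WT3. The neuropeptide gene *Hcrt*, which encodes the arousal peptide orexin of the lateral hypothalamus, read 2.90, 5.57 and 2.07 in WT and 0.95, 1.19 and -1.11 in KI/KI. Each KI/KI array lay below each WT array, with a difference of -3.17 (SE 1.04) and a range of -3.89 to -2.14 when any 1 array was left out. *Pmch*, the melanin-concentrating hormone gene of the same area, read 2.27, 4.88 and 0.88 in WT and 0.89, 1.81 and -1.74 in KI/KI. It overlapped between genotypes, at -2.36 (SE 1.28), and WT2 was the highest array for both peptides.

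The 16 monoamine neuron genes had a median of -0.16, which turned to 0.23 without KI3 and 0.09 without WT2 and lay between -0.58 and -0.39 when any other array was left out. Of these, 3 were separated downwards (2.87% of all genes) and 1 upwards (5.77% of all genes). *Slc6a3*, the dopamine transporter, read 1.50, 3.21 and 1.32 in WT and 1.10, 0.85 and -1.63 in KI/KI, a difference of -1.91 (SE 0.86). *Chrna6*, a nicotinic receptor subunit of dopamine neurons, differed by -1.55 (SE 0.53), and *Pitx3*, a transcription factor of the same neurons, by -0.54 (SE 0.18). *Aldh1a1*, a retinaldehyde dehydrogenase of dopamine neurons, was separated the other way, at 0.53 (SE 0.24). Tyrosine hydroxylase (*Th*) overlapped between genotypes, at -1.04 (SE 0.73). Without KI3 the difference of *Slc6a3* was -1.04 and that of *Chrna6* -1.06.

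Other forebrain lists had medians of both signs. The 16 cortical projection neuron genes had a median of -0.30, with a range of -0.46 to -0.17 when any 1 array was left out. The 7 habenular genes had a median of -0.44 (-1.02 to -0.26) and the 10 thalamic genes -0.14 (-0.37 to 0.09). The 9 hippocampal genes had a median of 0.34, which was 0.12 without KI3 and 0.77 without KI1, and KI3 was the highest array for 7 of them. Mitral and tufted cell genes had a median of 0.23 over 11 (0.10 to 0.38 with any 1 array left out), and *Eomes* was the only separated member. *Tbx21*, another T-box factor of mitral and tufted cells, was dim. It read -4.62, -4.95 and -5.14 in WT and -5.64, -3.97 and -3.98 in KI/KI, with KI1 the lowest of all, a difference of 0.38 (SE 0.49).

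Choroid plexus genes were higher in KI/KI on average, by a median that moved little without KI3. The choroid plexus is the epithelium that secretes cerebrospinal fluid. All 22 genes listed were tested, all 22 differences were positive, and their median was 0.68, against 0.01 over all genes. At an unadjusted p under 0.05, 7 were higher (1.7% of all genes), and 9 were separated (5.77% of all genes). *Aqp1*, the apical water channel, read -1.80, -1.60 and -2.57 in WT and -0.82, -1.45 and -0.56 in KI/KI, a difference of 1.04 (SE 0.35). *Ttr*, which encodes the thyroxine carrier transthyretin, read 5.87, 5.70 and 4.43 in WT and 6.77, 5.96 and 5.82 in KI/KI. WT3 was the lowest array and KI1 the highest for *Ttr*, and the genotypes overlapped, at 0.85 (SE 0.46). *Kl*, the klotho gene, differed by 0.83 (SE 0.33), *Col8a1*, a basement membrane collagen, by 0.96 (SE 0.30), and *Folr1*, a folate receptor, by 0.89 (SE 0.42), all of them separated. WT3 lay lowest, with a median of -0.72 relative to the WT mean, while KI1, KI2 and KI3 stood at 0.94, 0.53 and 0.54. The median of the list was 0.70 without KI3 and 0.38 without WT3. Without KI3, 2 of the 22 were higher at an unadjusted p under 0.05 (2.77% of all genes) and 12 were separated (16.3% of all genes).

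Ependymal and meningeal genes were highest in KI3. The 18 ependymal genes tested had a median of 0.54, 0.27 without WT3, 0.92 without KI1 and 0.20 without KI3, which was the highest array for 17 of them. *Dnah11*, a dynein of motile cilia, read -3.32, -2.69 and -4.18 in WT and -2.11, -2.34 and -1.27 in KI/KI, a difference of 1.49 (SE 0.46), separated and 1.17 without KI3. The 19 meningeal genes had a median of 0.49, which was 0.21 without KI3. *Col3a1*, a fibrillar collagen, read -1.86, -1.19 and -1.05 in WT and -1.80, -0.53 and 2.18 in KI/KI. Only KI3 stood clear of WT for this gene.

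Astrocyte genes had a small positive median, and the water channel of their endfeet was separated. The 21 astrocyte genes had a median of 0.20, with a range of 0.09 to 0.25 when any 1 array was left out. Of the 21, 18 had positive differences. At an unadjusted p under 0.05, 2 were higher (1.7% of all genes), and 4 were separated upwards (5.77% of all genes). *Aqp4* read 2.06, 2.60 and 2.05 in WT and 3.13, 2.98 and 3.59 in KI/KI, a difference of 1.00 (SE 0.26) and 0.82 without KI3. Every KI/KI array lay above every WT array. *Gja1*, the gap junction protein connexin 43, was also separated, at 0.48 (SE 0.17). *Aldh1l1*, a folate enzyme used as a general astrocyte marker, differed by 0.11 (SE 0.17).

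Genes of reactive astrocytes, activated microglia and immune signaling were higher in KI3 than in the other 5 samples. *Gfap*, the intermediate filament of reactive astrocytes, read 2.97, 1.98 and 2.67 in WT and 2.82, 3.36 and 5.41 in KI/KI. KI1 lay within the WT range for *Gfap*. The complement component *C3* read -0.19, -0.93 and -1.63 in WT and -0.33, -0.28 and 4.38 in KI/KI. *Cst7*, the cystatin F of activated microglia, read -5.06, -5.38 and -5.32 in WT and -4.76, -5.54 and 1.08 in KI/KI. For *C3*, KI1 and KI2 lay within the WT range, and for *Cst7* they lay on either side of it, while KI3 was far above the other arrays for both genes.

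Across lists, the 24 reactive astrocyte genes had a median of 0.88 and of 0.32 without KI3. The 28 interferon-induced genes went from 0.77 to 0.27, the 18 complement genes from 0.61 to 0.09, the 20 activated microglia genes from 0.65 to 0.20 and the 22 homeostatic microglia genes from 0.36 to -0.01. The 11 MHC class I genes went from 0.53 to 0.19 and the 27 chemokine and receptor genes from 0.53 to 0.09. The comparable values over all genes were 0.01 and 0.07. KI3 was the highest array for 25 of the 28 interferon-induced genes and for all 11 MHC class I genes. With KI3 included, 7 reactive astrocyte, 10 interferon-induced, 3 complement and 5 activated microglia genes were separated upwards, against 5.77% of all genes. Without KI3 these counts were 7, 10, 4 and 5, against 16.3% of all genes.

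**Figure D4:**
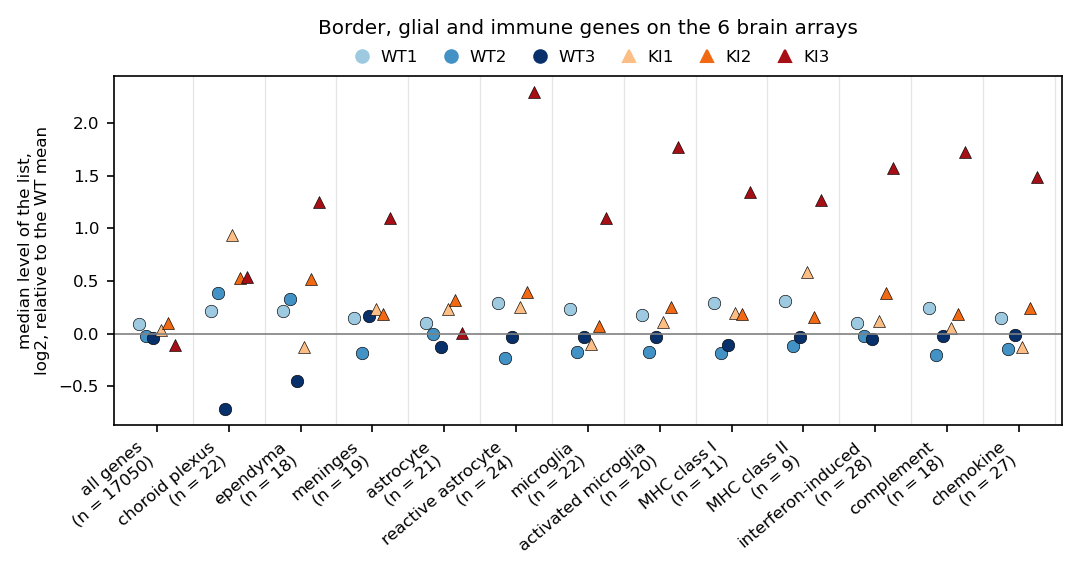
Median log2 level of 12 lists of brain border, glial and immune genes on each brain array, relative to the WT mean of each gene, with all genes at the left. KI3 stands at 2.30 for reactive astrocyte genes and 1.57 for interferon-induced genes, whereas the choroid plexus list has all KI/KI arrays at 0.53 or above and WT3 at -0.72.

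MHC class II genes, which encode the antigen-presenting molecules of microglia and border macrophages, were higher in KI/KI on average. Of 9 tested, 4 were higher at an unadjusted p under 0.05 (1.7% of all genes), and 6 were separated (5.77% of all genes). *H2-Ab1* read 0.40, -0.12 and -0.29 in WT and 0.58, 0.79 and 1.69 in KI/KI, a difference of 1.02 (SE 0.35). *H2-Eb1* read 0.34, 0.05 and -0.31 in WT and 0.79, 0.59 and 1.37 in KI/KI, a difference of 0.89 (SE 0.28). *H2-Aa* and the invariant chain *Cd74* differed by 0.88 (SE 0.29) and 0.87 (SE 0.35). In these 4 genes KI3 was the highest array and WT1 the highest WT array. The list's median of 0.56 was 0.37 without KI3, with 2 genes higher at that p level (2.77% of all genes). In the 5-month pair alone, KI1 exceeded WT1 by 0.18 for *H2-Ab1* and 0.46 for *H2-Eb1*.

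*Spp1*, though grouped with the activated microglia genes, did not follow them, since KI1 and KI2 were as high as KI3. *Clec10a*, a C-type lectin of dendritic cells and macrophages, read -2.00, -2.47 and -2.25 in WT and -1.53, -1.60 and -1.34 in KI/KI, a difference of 0.75 (SE 0.19). *Tgtp2*, an interferon-inducible GTPase, differed by 0.86 (SE 0.26) and was 1 of the 10 separated interferon-induced genes. *Trem2*, a lipid receptor of microglia, and *Cx3cr1*, their fractalkine receptor, differed by 0.64 (SE 0.56) and 0.35 (SE 0.33), with KI3 alone outside the WT range upwards.

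NF-kappaB genes were examined because RAP1 acts on that pathway. The 20 genes tested had a median of 0.16, and 2 were higher at an unadjusted p under 0.05 (1.7% of all genes). *Traf1*, a target and adaptor of the pathway, read -2.15, -1.88 and -2.42 in WT and -1.04, -1.10 and 0.03 in KI/KI, a difference of 1.44 (SE 0.35) and 1.08 without KI3. *Nfkbie*, an inhibitor that holds NF-kappaB in the cytosol, read -1.31, -1.75 and -1.66 in WT and -0.69, -1.04 and -0.75 in KI/KI, a difference of 0.74 (SE 0.20). Both genes were separated, as were *Bcl3* at 1.40 (SE 0.70) and *Nfkb2* at 0.46 (SE 0.24). This makes 4 of the 20 against 5.77% of all genes. Without KI3, 5 of the 20 were separated upwards (16.3% of all genes), and the median of the list was 0.12. The subunit genes *Rela* and *Nfkb1* differed by 0.19 (SE 0.18) and 0.15 (SE 0.17).

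Cytokine and inflammasome transcripts were mostly highest in KI3. Of 21 genes listed, 13 were tested, 10 of them with positive differences, and the median of 0.22 was -0.09 without KI3. KI3 was the highest array for 11 of the 13, against 20.1% of all genes. *Tnf*, *Il6*, *Il10*, *Il1a*, *Il1rn*, *Il12b*, *Il17a* and *Csf3* were not well above background on enough arrays to be tested. *Il1b* read -4.15, -5.12 and -4.93 in WT and -5.35, -5.05 and -3.42 in KI/KI, and its genotypes overlapped, at 0.13 (SE 0.56). Of the 13, 3 were separated, all upwards (5.77% of all genes). They were *Tlr2* at 1.32 (SE 0.75), *Tlr4* at 0.67 (SE 0.31) and *Casp4* at 0.92 (SE 0.54), which were 0.41, 0.34 and 0.28 without KI3. Among chemokines, *Ccl5*, a ligand of T cells and monocytes, differed by 1.79 (SE 0.98) and by 0.59 without KI3.

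Neuronal genes were slightly lower on average. The 28 pan-neuronal genes had a median of -0.13, and KI3 was the lowest array for 19 of them. The median was 0.04 without KI3, 0.00 without WT1 and between -0.26 and -0.18 when any other array was left out. Immediate early genes, which report recent neuronal activity, had a median of -0.56 over 20, -0.18 without KI3, -0.36 without WT1 and -0.87 without KI2. *Npas4*, an activity-dependent transcription factor, read 2.15, 2.24 and 2.27 in WT and 1.65, 1.96 and 1.10 in KI/KI, a difference of -0.65 (SE 0.25). *Homer1*, whose short form is activity-induced, was also separated, at -0.43 (SE 0.18). The widely used activity gene *Arc* read 5.33, 3.79 and 5.57 in WT and 4.22, 4.86 and 2.96 in KI/KI, with WT2 low and the genotypes overlapping, at -0.88 (SE 0.65).

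Of 15 GABA genes, 13 had negative differences, with a median of -0.19, -0.01 without KI3, -0.05 without WT1 and -0.33 without KI2. *Gabrg3*, a GABA-A receptor subunit, read -2.21, -2.20 and -2.48 in WT and -2.71, -2.77 and -3.29 in KI/KI, a difference of -0.63 (SE 0.22). *Gabbr2*, the GABA-B receptor subunit that couples to G proteins, was also separated, at -0.35 (SE 0.18). The 22 glutamate genes had a median of -0.19 and the 21 neuropeptide genes -0.27, which was 0.01 without KI3.

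Oligodendrocyte genes had a median of 0.20 over 22, which was 0.06 without WT3, 0.11 without KI2 and 0.35 without WT2. *Klk6*, a secreted serine protease of mature oligodendrocytes, read 0.15, 1.04 and 0.10 in WT and 1.95, 1.39 and 1.57 in KI/KI, a difference of 1.20 (SE 0.32) and 1.24 without KI3. *Mag*, a myelin adhesion protein, was separated by less, at 0.27 (SE 0.18). *Enpp6*, a choline phosphodiesterase of newly formed oligodendrocytes, differed by 0.69 (SE 0.23), with each KI/KI array above each WT array. Endothelial and mural genes had medians of 0.15 over 20 and 0.18 over 14. No member had an unadjusted p under 0.05 (1.7% of all genes higher and 0.915% lower). Of the 20 endothelial genes, 4 were separated upwards and 1 downwards, and of the 14 mural genes 2 upwards (5.77% of all genes upwards and 2.87% downwards). All 14 mural genes had positive differences, and KI3 was the highest array for 11 of them, against 20.1% of all genes.

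Metabolic and housekeeping genes depended on KI3. The 74 respiratory chain genes had a median of 0.04 with all arrays and of 0.22 without KI3, which was the lowest array for 66 of them. None was separated with all 6 arrays, and 37 were separated upwards without KI3 (16.3% of all genes). The 20 citric acid cycle genes went from 0.03 to 0.21 and the 31 proteasome genes from 0.05 to 0.18. Among the 78 ribosomal protein genes, 72 had positive differences, with a median of 0.10 that was 0.16 without KI3 and 0.03 without WT3, and 10 were separated upwards (5.77% of all genes). The 21 sterol synthesis genes had a median of -0.15 and of 0.05 without KI3, which was the lowest array for 18 of them. *Bag3*, a co-chaperone of HSP70, had the largest difference of 16 heat shock genes, with 0.81, 0.92 and 0.61 in WT and 2.13, 1.57 and 1.63 in KI/KI. Its KI/KI arrays stood clear of WT, at 1.00 (SE 0.22) and 1.08 without KI3. The small heat shock protein *Hspb1*, also on the reactive astrocyte list, and the BAG3 partner *Hspb8* were also separated, at 0.80 (SE 0.22) and 0.74 (SE 0.30). This makes 3 of the 16 separated upwards, against 5.77% of all genes. The median of the list was 0.04, which was 0.20 without KI3 and -0.08 without KI2.

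The clock gene list had differences of both signs. *Npas2*, a partner of BMAL1, read -2.35, -3.09 and -2.98 in WT and -3.68, -3.38 and -3.77 in KI/KI, a difference of -0.81 (SE 0.26). *Per2*, a repressor of the clock, was separated at -0.49 (SE 0.22). The labels do not give the hour at which tissue was taken. Over 18 clock genes the median was -0.09.

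Genes of the p53 response had a median of 0.12 over 19. *Cdkn1a*, the p21 gene, read 0.47, -0.83 and 0.25 in WT and -0.64, 0.20 and -0.20 in KI/KI, all KI/KI arrays lying within the WT range. *Apaf1*, the scaffold of the apoptosome, was separated, at 0.71 (SE 0.21), as was *Gdf15*, a stress-induced cytokine, at 1.75 (SE 0.72) and 0.95 without KI3. *Cdk1*, the mitotic kinase, was too dim in WT for any of those arrays to pass the scanner's background test. It was at least 2.83-fold higher in KI/KI, with KI3 highest. The KI/KI arrays alone brought *Cdk1* into the comparison, which favors this direction. *Mki67*, another division gene, overlapped between genotypes, with KI1 the lowest array and KI3 the highest. In the Wnt and BMP list of 25 genes, 5 were separated upwards (5.77% of all genes). Among them were the ligand *Wnt6* at 0.75 (SE 0.22) and the Wnt and BMP antagonist *Sostdc1* at 0.65 (SE 0.24). *Sostdc1* is also a member of the choroid plexus list.

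Sizes of difference were also read within each slide, and so within each age. *Spp1*, *Eomes*, *Klk6* and *Hcrt* were chosen as separated, which fixes the direction on each slide. KI1 exceeded WT1 on the slide of 5-month-old mice by 2.28 for *Spp1*, 1.72 for *Eomes* and 1.80 for *Klk6*, and the difference for *Hcrt* was -1.95. On the slide of 2-month-old mice the differences were 2.12, 2.81, 0.91 and -3.78. The immune lists differed in size between the slides, which was not tested: interferon-induced genes had a median of 0.12 in the 5-month pair and 1.15 in the 2-month-old mice, which include KI3, and reactive astrocyte genes 0.01 and 1.51. With 1 mouse of each genotype at 5 months there is no replicate check of that pair.

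Whether the brain differed from the other tissues was asked in a fit of all 24 arrays, as the KI/KI minus WT difference in brain minus its mean in liver, heart and muscle. By the numbers in their titles, the same 6 mice gave all 4 tissues, and the fit had no term for the mouse. No probe passed an adjusted p of 0.05 (0% of 37835), and 980 passed at an unadjusted p under 0.05 (2.59%). A fit that added each animal as a block gave 0 and 1083 such probes (0% and 2.86%), and *Eomes*, *Cst11*, *Spp1* and *H2-Ab1* each had an adjusted p of 1 (limma). For *Eomes* the brain exceeded the other tissues by 2.45 (SE 0.51, adjusted p 0.91), with 0.24, 0.26 and -0.52 in liver, heart and muscle. For *Cst11* the value was -1.62 (SE 0.32, adjusted p 0.70). *Spp1* was also higher in KI/KI liver, heart and muscle, by 0.63, 0.89 and 0.40, so that the brain exceeded their mean by 1.53 with an SE of 1.01. The MHC class II gene *H2-Ab1* differed by -0.11, -0.53 and -0.72 in liver, heart and muscle, and the brain exceeded their mean by 1.47 (SE 0.41), with an adjusted p of 1.

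**Figure D5:**
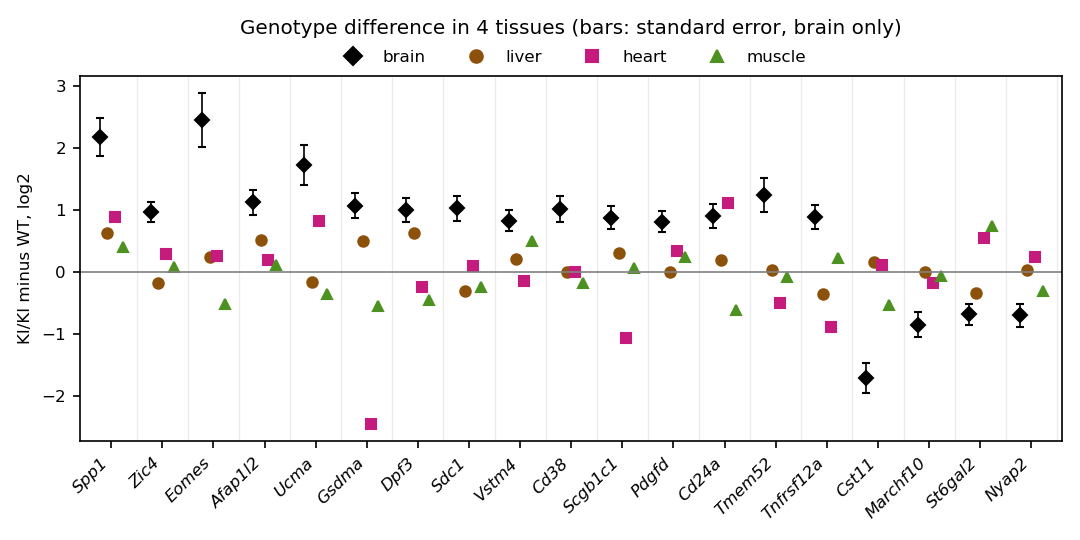
Difference between KI/KI and WT mice in brain, liver, heart and muscle, in log2, for the 15 higher genes and 4 of the lower ones; bars on the brain points are standard errors. The genes were chosen in the brain, and *Spp1* lies above 0 in all 4 tissues while *Eomes* lies near 0 in liver and heart.

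The exact permutation test of 3 against 3 arrays cannot go below a p of 0.1, and the number of arrays limits the precision of every value. The tests use the spread between mice, pooled across probes by limma.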

How the data were processed

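Brain RNA of 3 WT and 3 KI/KI mice was hybridized to Agilent 1-color arrays. The intensity values deposited by the authors were processed signals of Feature Extraction 12.0.3.1, background-subtracted and detrended spot by spot, with no scaling between arrays. A deposited table of score values matched the z-scores of the log10 signals within 0.005 on all 24 arrays and served as an alternative.

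From these, control spots (3671) and outlier spots were left out, spots of a probe were averaged, and log2 signals were set relative to the 75th percentile of each array. Probes that the scanner marked as well above background on 3 or more brain arrays were fitted with limma 3.58.1 in R 4.3.3 (genotype as the only term, two-sided, Benjamini-Hochberg over 37835 probes), and the code was tested on simulated data. Of 55681 probes, 28331 carried a gene name and 27350 did not. A gene with several probes was read from its brightest one. For 19 genes a value was missing on some array. Groups came from the labels, and the mice were numbered within a genotype in the order of their entries. The methods of the study named no test for the arrays.

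Genes were named by fixed rules: *Terf2ip*; the 15 separated genes with the smallest p in each direction; and, of 61 lists of marker and pathway genes, separated members, members at an unadjusted p under 0.05 and up to 6 bright members. Other list members, such as *Pcp2*, *Hoxb5*, *Alb*, *Pmch*, *Tbx21*, *Trem2* and *Mki67*, were named after their values were seen. The members and lists were chosen with earlier results of these data known, so no list was tested. The alternatives were normexp background correction (offset 50), quantile normalization, the z-score table, other filters, slide as a block, 2-month-old mice alone, each array left out, all 24 arrays in 1 fit, the mouse as a block across tissues (added after the data were seen), trend and robust variance, array weights and the mean over probes. Normexp was run on median signals, because the scanner files used here hold no mean signal, and was chosen in that form after the data were seen. Multiple probes, cross-hybridization between paralogs and probe brightness can affect the measurements. Some items are not reported here.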

Additional observations from a re-analysis of the deposited data

How the results depend on the processing

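No probe was called (limma) except under quantile normalization and array weights, which called 1 probe each, the unnamed AK138519 (adjusted p 0.013 and 0.016). With any 1 array left out, 155 to 728 probes were higher and 219 to 2192 lower at an unadjusted p under 0.05: 728 higher without KI3, 155 higher and 219 lower without WT3, and 2192 lower without WT1. Array weights gave 3197 higher and 5594 lower. The lower count was 376 after quantile normalization, 194 after normexp, 346 with trend and robust variance and 1572 in the 2-month-old mice alone. Separated probes numbered 1514 upwards and 1412 downwards in all 6 arrays, 1832 to 4612 and 2024 to 6023 with 1 array left out and 5218 and 8554 in the 2-month-old mice, fewer arrays being easier to separate, and 790 (normexp) and 861 (z-score table) downwards. The median of the hindbrain genes was 5.08 under array weights and 1.17 after normexp. It was 0.82 over the 3 genes well above background on all 6 arrays.

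Of 99 named genes, 90 kept their direction under every alternative run. Many were named because they were separated, which fixes their direction when arrays are left out, so this count does not measure stability. With 1 array left out, *Terf2ip* ranged from -0.16 to 0.14, *Alb* from -2.26 to 1.05, *Penk* from -1.13 to 0.44, *Trem2* from -0.038 to 1.00, *Cx3cr1* from -0.011 to 0.56, *Il1b* from -0.47 to 0.50, *Cdkn1a* from -0.57 to 0.077 and *Mki67* from -0.34 to 1.05. In the 2-month-old mice alone, *Terf2ip* was 0.13, *Alb* 1.04 and *Cdkn1a* 0.29. Under array weights, which weighted WT3 most (3.89) and KI3 least (0.28), *Terf2ip* was 0.28, *Alb* 0.14, *Penk* 0.35, *Th* 0.045, *Il1b* -0.13 and *Mki67* -0.25. The cause was not tested. Without KI replicate 3 in every tissue, 1 probe differed between brain and the other tissues (6.86, adjusted p 0.0087, limma). It belonged to *Uts2*, the urotensin 2 gene of hindbrain and spinal motor neurons. That fit had no term for the mouse, although the same mice gave all tissues. It also kept WT3, whose brain was low for hindbrain genes, against KI1 and KI2, whose brains were high for them. Whether either limit plays a part in the *Uts2* difference was not tested. With the mouse as a block, added after the data were seen, 0 probes differed between brain and the other tissues. The block fit included KI3, so it does not check the *Uts2* result. Between genotypes, no paired analysis was possible because the labels give the 2 genotypes no shared replicate numbers.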
